A study of Homo sapiens with 6 samples.

Results

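The unfolded protein response and the amino acid stress response were examined in YAPC cells, a human pancreatic ductal adenocarcinoma line used as a model of the classical subtype, with and without induced GLI2. The genes are 32 of the 25442 genes of the RNA-seq table. They were chosen by symbol from a list of known stress response genes, and each had a row of its own. For 7 of them (EIF2AK3, DDIT3, DNAJB9, CALR, PDIA3, PDIA6 and SYVN1) the locus is shared with other entries. The assignment of fragments is less certain there. All 32 are annotated as protein-coding genes, and all 32 passed the filter on low values. The cells carried the reverse Tet transactivator (rtTA) and the retroviral vector pRetroX-Tight-Puro, in which a doxycycline (Dox) responsive promoter drives the insert. In YAPC-iGLI2 cells (3 libraries) the insert is human GLI2, which the methods describe with a Flag tag, and in YAPC-iEV cells (3 libraries) the vector is empty. Both groups grew in full medium with Dox for 6 days, so any effect of Dox is common to them. The methods speak in general of independent biological replicates, but the labels of these libraries do not say whether the 3 of a group came from separate cultures. The p-values therefore measure the spread between these libraries, which may be technical. In a bulk sample, fewer cells that express a gene and less of its RNA per cell cannot be told apart.

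Cells respond to misfolded protein in the endoplasmic reticulum (ER) through the sensors IRE1α, PERK and ATF6. IRE1α splices XBP1 mRNA and ATF6 is released as a transcription factor, and both raise chaperones and components that remove misfolded proteins. PERK phosphorylates the initiation factor eIF2α, as do kinases that sense amino acid shortage. This slows translation in general and favors translation of ATF4, which induces genes for amino acid synthesis, transport and tRNA charging. Secretory epithelial cells such as those of the pancreas depend on these programs.

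Values are FPKM, which count fragments per transcript length and per library size, so that levels can be set side by side between genes. The number of reads behind them is unknown, and no counting error can be given. Tests were run on log2(FPKM + 1) with limma for the 12493 genes whose average reached 1 FPKM. A gene was called at a Benjamini-Hochberg adjusted p under 0.05, two-sided, and log2 differences are iGLI2 minus iEV on that scale. Total FPKM ranged from 981344 to 1082687 in iEV and from 803149 to 889559 in iGLI2 cells. The single small RNA gene MIR4461 held 42.6% to 45.4% of it in iEV and 35.7% to 37.7% in iGLI2 cells. Neither value overlapped between the groups, so the choice of scaling bears on the comparison itself. Of the genes called, 46.0% were higher in iGLI2 cells, and 59.4% once small RNA genes were left out and the libraries rescaled. GLI2 was at most 0.466 FPKM in iEV cells and was 94.5, 207 and 195 FPKM in iGLI2 replicates 1, 2 and 3. Of 8 markers of the epithelial tumor line, 6 were above 1 FPKM, with EPCAM between 396 and 526 FPKM, while KRT8 and KRT18 are listed at 0 in every library, which in a table of this kind can be a failed estimate. Of 7 fibroblast markers, COL1A1 alone reached 1 FPKM, with a summed level between 1.51 and 3.09 FPKM. The 4 endothelial markers stayed under 1 FPKM, and of 5 immune markers CD68, CD14 and CD79A reached it, with a summed level from 7.65 to 8.56 FPKM in iEV and from 4.97 to 5.84 FPKM in iGLI2 cells.

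The promoters of several members carry the sequence elements through which these programs are known to act. RefSeq promoter windows (GRCh38.p14, 250 bases before to 50 bases after the start) were found for 31 of the 32 genes, PDIA3 being the exception, and searched on both strands. The ER stress response element, CCAAT and CCACG with 9 bases of any kind between them, was found in 6 of the 31 (19.4%) against 0.0806% of 27305 promoters. They belong to XBP1, HSPA5, HSP90B1, CRELD2, CALR and CANX. Its second form, ATTGG and CCACG with 1 base of any kind between them, was found for HYOU1, SDF2L1 and HERPUD1 (9.68% against 0.0549%). The C/EBP-ATF response element, TGATGNAA, through which ATF4 acts, was found for ATF3, HERPUD1, ASNS and CHAC1 (12.9% against 3.67%). The UPR element, TGACGTGG, was found for HYOU1 alone (3.23% against 0.795%), where it overlaps the second form of the ER stress response element. A match is a description of these letters, not a site shown to be bound. A single window per gene was searched, so other transcription starts of a gene were not covered.

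The 250 bases before the start are shown 5′ to 3′ on the strand of the gene for 3 chaperone genes with an ER stress response element, 2 ATF4 target genes and EDEM1, with matches in capitals. HSPA5 lies on the minus strand at chr9:125241344-125241593, HYOU1 on the minus strand at chr11:119057206-119057455 and CANX on the plus strand at chr5:179698679-179698928. ASNS lies on the minus strand at chr7:97872409-97872658, CHAC1 on the plus strand at chr15:40953221-40953470 and EDEM1 on the plus strand at chr3:5187457-5187706, all in GRCh38.p14.
HSPA5: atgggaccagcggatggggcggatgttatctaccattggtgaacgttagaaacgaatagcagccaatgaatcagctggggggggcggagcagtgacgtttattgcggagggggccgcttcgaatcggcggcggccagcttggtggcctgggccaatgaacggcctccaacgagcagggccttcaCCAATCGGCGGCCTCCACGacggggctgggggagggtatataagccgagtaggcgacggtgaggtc
HYOU1: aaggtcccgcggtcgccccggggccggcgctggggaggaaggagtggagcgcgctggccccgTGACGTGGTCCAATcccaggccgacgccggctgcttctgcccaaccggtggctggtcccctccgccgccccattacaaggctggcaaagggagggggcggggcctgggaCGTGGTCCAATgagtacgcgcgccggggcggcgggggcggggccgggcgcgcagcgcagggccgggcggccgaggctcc
CANX: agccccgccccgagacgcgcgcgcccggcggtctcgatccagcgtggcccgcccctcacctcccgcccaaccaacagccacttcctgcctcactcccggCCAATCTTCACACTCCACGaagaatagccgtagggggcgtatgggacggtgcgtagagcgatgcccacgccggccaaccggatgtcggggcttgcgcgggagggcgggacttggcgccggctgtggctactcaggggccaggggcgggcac
ASNS: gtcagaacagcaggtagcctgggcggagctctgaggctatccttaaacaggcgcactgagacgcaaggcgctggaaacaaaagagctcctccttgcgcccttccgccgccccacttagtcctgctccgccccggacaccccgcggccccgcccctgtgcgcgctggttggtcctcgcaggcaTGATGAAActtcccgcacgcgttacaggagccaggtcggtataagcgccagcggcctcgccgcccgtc
CHAC1: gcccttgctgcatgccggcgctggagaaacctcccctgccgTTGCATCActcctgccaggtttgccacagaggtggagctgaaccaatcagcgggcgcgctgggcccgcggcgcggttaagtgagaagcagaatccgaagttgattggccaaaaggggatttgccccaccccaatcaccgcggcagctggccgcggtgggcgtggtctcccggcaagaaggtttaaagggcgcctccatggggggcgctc
EDEM1: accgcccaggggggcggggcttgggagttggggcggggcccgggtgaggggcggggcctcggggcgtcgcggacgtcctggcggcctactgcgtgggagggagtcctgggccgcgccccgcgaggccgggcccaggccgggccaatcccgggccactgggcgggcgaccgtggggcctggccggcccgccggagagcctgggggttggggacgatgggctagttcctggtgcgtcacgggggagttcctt
Counted back from the start at -1, the element of HSPA5 lies at -66 to -48, that of CANX at -151 to -133 and that of ASNS at -68 to -61. CHAC1 has its match at -209 to -202 on the opposite strand. HYOU1 has 2 matches of the second form, at -185 to -175 and at -79 to -69, and the window of EDEM1 held none of the 4 elements.

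In all 6 libraries, 3 of the 32 genes differed between the groups. EDEM1 was higher in iGLI2 cells and CANX and TRIB3 were lower. These 3 are 9.38% of the genes, where 21.9% of all genes tested were called, 10.1% as higher and 11.8% as lower. The median log2 difference was 0.0041 over the 32 genes and -0.015 over all genes tested. The groups did not overlap for 7 of the 32 genes (21.9%), against 42.0% of all genes tested. A single library, iGLI2 replicate 1, stood apart for much of the list. It was at least 2-fold below the mean of iGLI2 replicates 2 and 3 for 6 of the 32 genes (18.8%), against 2.81% of all genes tested. None of the 32 genes was 2-fold above in that library (1.10% of all genes tested were), and in the other 5 libraries none was 2-fold below or above the others of its group, against 4.35% of all genes tested in any of them. Within the iGLI2 libraries, replicate 1 was the lowest for 25 of the 32 genes, against 52.6% of all genes tested, and the highest for 6, against 37.1%. The same library had the lowest GLI2 value of the iGLI2 cells, and the part of this in the results was not tested. For the 32 genes, results whose call depends on it are therefore given with and without it. Where the direction turned, the closing section gives the range over left-out libraries. For the further pathway genes, counts and a few named genes are given both ways.

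**Figure D1:**
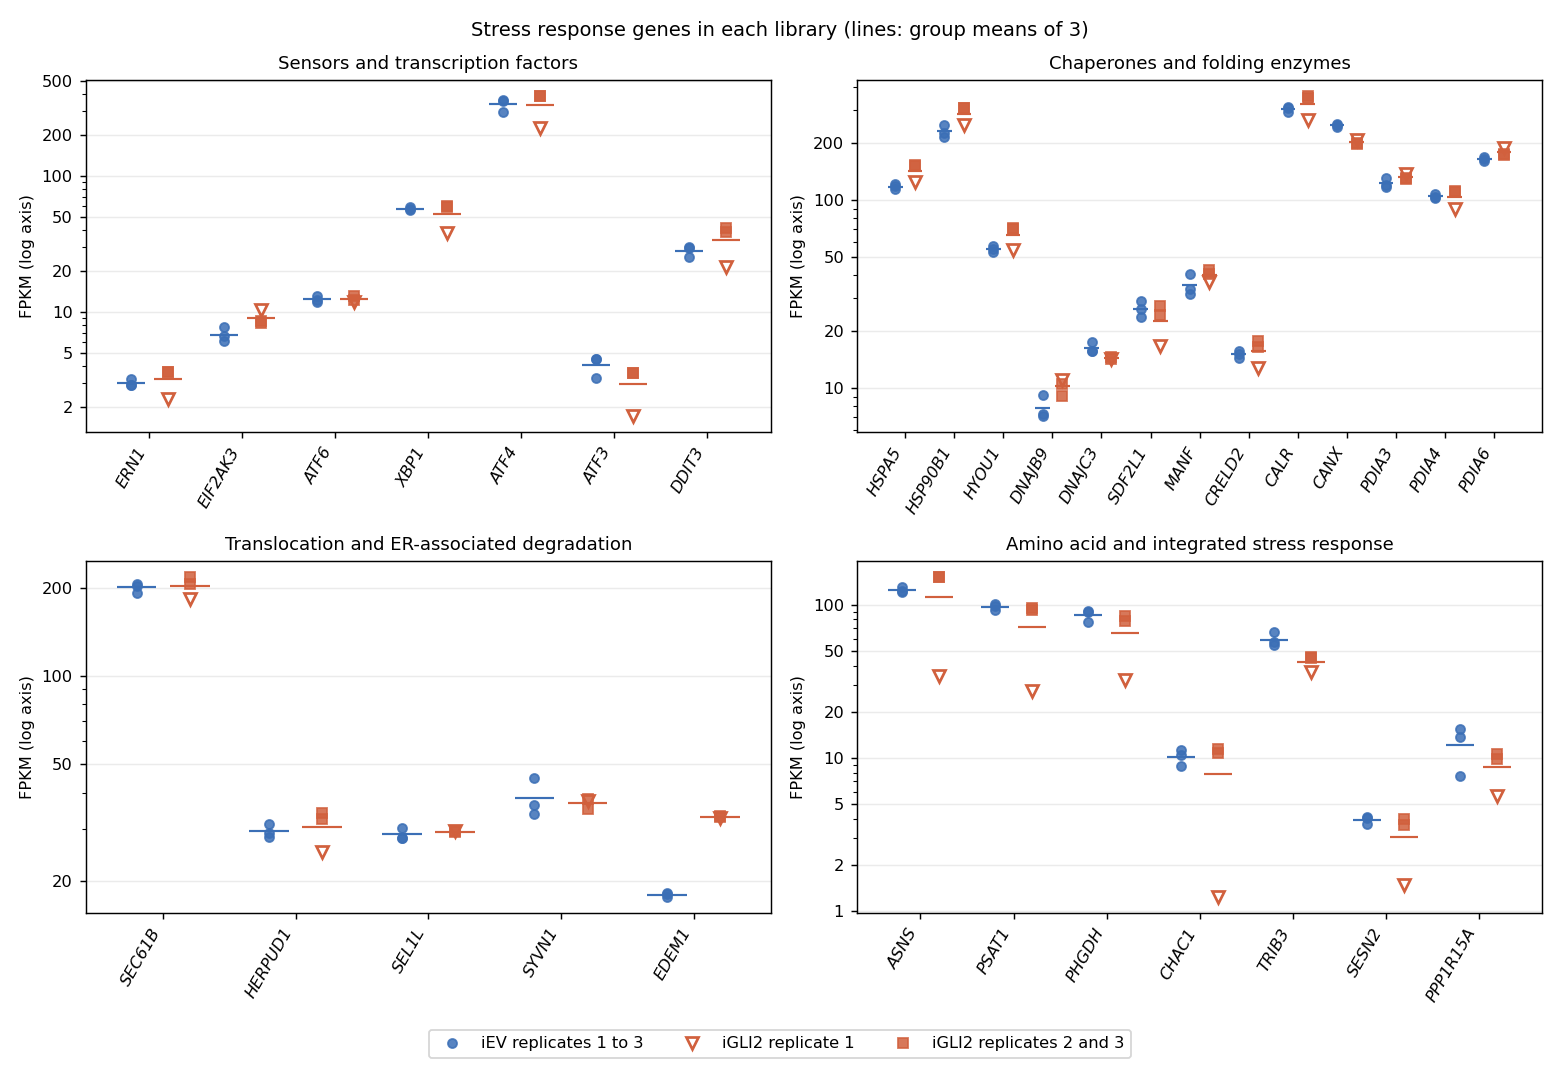
FPKM on log axes for the 32 genes in 4 panels by role, with iEV replicates 1 to 3 as circles, iGLI2 replicate 1 as an open triangle, iGLI2 replicates 2 and 3 as squares and lines at the means of 3 libraries. EDEM1 is separated between the groups, from 17.6 to 18.2 FPKM in iEV and from 32.8 to 33.4 FPKM in iGLI2 cells, while the triangle lies far below all other points for ASNS, PSAT1, PHGDH, CHAC1 and SESN2.

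Without iGLI2 replicate 1, 9 of the 32 genes (28.1%) were called, against 30.0% of all genes tested. DDIT3, HSPA5, HSP90B1, HYOU1, CALR, EDEM1 and ASNS were higher, and CANX and TRIB3 were lower. This fit kept iEV replicate 1, which was the lowest iEV library for DDIT3, HSPA5, HSP90B1, HYOU1, CALR and EDEM1. A low iEV library makes these differences larger, and no fit left out both replicate 1 libraries. Of all genes tested, 14.8% were called higher and 15.2% lower in the same fit. The groups then did not overlap for 18 of the 32 genes, against 61.3% of all genes tested, and the median log2 difference of the 32 was 0.08. The list as a whole was therefore called no more often than other genes in either fit, and the results below concern single genes and roles.

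**Figure D2:**
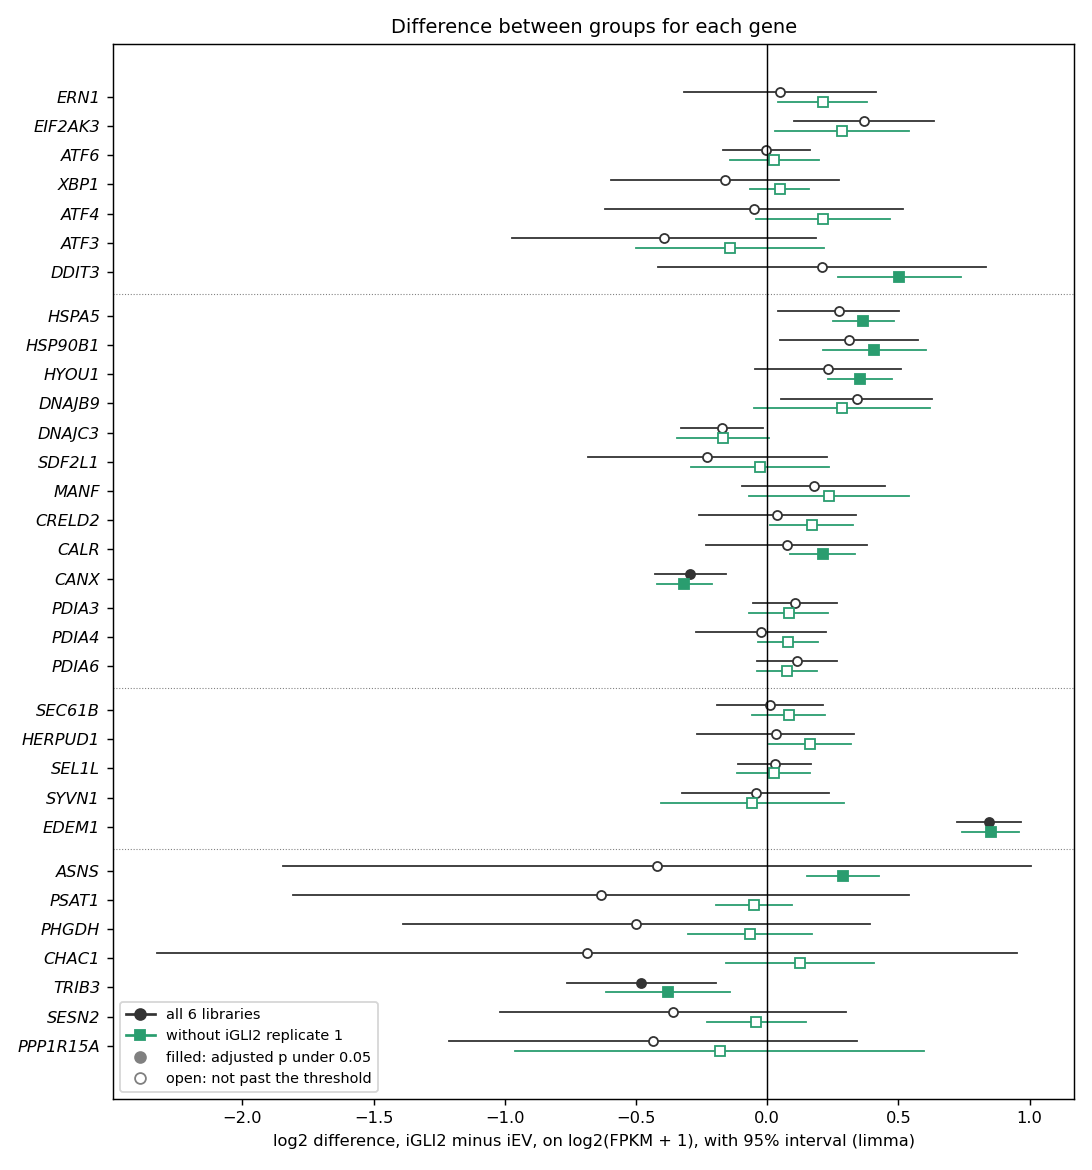
Log2 difference of iGLI2 minus iEV for each of the 32 genes with its 95% interval from limma, for all 6 libraries (circles) and without iGLI2 replicate 1 (squares), filled where the adjusted p is under 0.05. The 3 filled circles are CANX, EDEM1 and TRIB3, and the intervals of ASNS, PSAT1, PHGDH and CHAC1 narrow when the single library is left out.

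None of the 7 genes for sensors and transcription factors was called in all 6 libraries. ERN1, which encodes IRE1α, was low throughout, at 2.92, 3.24 and 2.93 FPKM in iEV replicates 1, 2 and 3 and at 2.32, 3.66 and 3.67 FPKM in iGLI2 replicates 1, 2 and 3. EIF2AK3, which encodes PERK, was 7.74, 6.17 and 6.64 FPKM in iEV and 10.3, 8.38 and 8.67 FPKM in iGLI2 cells in the same order. Every iGLI2 library thus lay above every iEV library for EIF2AK3, with a log2 difference of 0.37 that missed the threshold (95% interval 0.10 to 0.63, limma adjusted p = 0.0615). ATF6 had between 11.8 and 13.2 FPKM in all 6 libraries, and its interval of -0.17 to 0.16 bounds any difference to a small one. XBP1 was 59.0, 56.7 and 56.2 FPKM in iEV cells and 38.1, 58.7 and 59.8 FPKM in iGLI2 replicates 1, 2 and 3. Gene-level values do not separate spliced from unspliced XBP1 mRNA, nor do they show the phosphorylation of PERK or the cleavage of ATF6.

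ATF4, the transcription factor of the amino acid response, had the highest level of the 7. Its values were 295, 358 and 353 FPKM in iEV and 224, 387 and 387 FPKM in iGLI2 cells. Replicates 2 and 3 of iGLI2 thus lay above all iEV libraries and replicate 1 below them all, and the log2 difference was -0.05 with an interval from -0.62 to 0.52. DDIT3 encodes CHOP, a factor linked to cell death under prolonged ER stress. It was 25.2, 29.3 and 30.1 FPKM in iEV and 21.3, 41.7 and 39.0 FPKM in iGLI2 cells. Its log2 difference was 0.21 in all 6 libraries (limma adjusted p = 0.604) and 0.50 without iGLI2 replicate 1 (standard error 0.090, limma adjusted p = 0.0169). The DDIT3 locus in the table also holds MARS, a methionyl-tRNA synthetase gene that overlaps it, so the assignment of fragments between them is uncertain. ATF3, a stress-induced relative of ATF4, was between 3.27 and 4.55 FPKM in iEV cells and was 1.72, 3.60 and 3.61 FPKM in iGLI2 cells. Its log2 difference of -0.39 had an interval from -0.97 to 0.19.

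Among the 13 chaperones and folding enzymes, CANX fell and the other 12 were not called in all 6 libraries (7.69%, against 21.9% of all genes tested). Without iGLI2 replicate 1, 4 were called higher and 1 lower (38.5%, against 30.0%). CANX encodes calnexin, the membrane-bound lectin chaperone of glycoproteins, and lies at chr5:179125930-179158639 of hg19. It was 252, 245 and 249 FPKM in iEV and 209, 202 and 198 FPKM in iGLI2 cells, so that the groups did not overlap. The mean fell from 249 ± 3.99 to 203 ± 5.74 FPKM (SD over the 3 libraries of each group, n = 3), which is a log2 difference of -0.29 (standard error 0.055, limma adjusted p = 0.0155). Its size stayed between -0.32 and -0.28 as each library was left out in turn, but the adjusted p passed 0.05, with values from 0.0599 to 0.0671, without iEV replicate 2 or 3 or iGLI2 replicate 2 or 3. Rescaling after small RNA genes were left out gave -0.22 (limma adjusted p = 0.0885), and quantile normalization gave -0.17 (limma adjusted p = 0.166), so that the size of the difference depended on the scaling.

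HSPA5 encodes BiP, the ER Hsp70 chaperone that also keeps the sensors inactive. It was 114, 119 and 121 FPKM in iEV and 125, 153 and 152 FPKM in iGLI2 cells, and every iGLI2 library lay above every iEV library. The log2 difference was 0.27 (limma adjusted p = 0.0928) with all 6 libraries and 0.37 (limma adjusted p = 0.00572) without iGLI2 replicate 1. HSP90B1, which encodes the ER Hsp90 GRP94, was 217, 226 and 252 FPKM in iEV and 251, 307 and 307 FPKM in iGLI2 cells. For HSP90B1 the log2 difference was 0.31 (limma adjusted p = 0.0920) and, without that library, 0.41 (limma adjusted p = 0.0180). HYOU1, a nucleotide exchange factor of BiP, was 53.0, 54.7 and 56.9 FPKM in iEV and 54.4, 70.1 and 70.6 FPKM in iGLI2 cells. Its log2 difference was 0.23 in all 6 libraries (limma adjusted p = 0.206) and 0.35 without that library (limma adjusted p = 0.00716), and it was also called in all 6 libraries after rescaling without small RNA genes, at 0.31 (limma adjusted p = 0.0411). CALR, the soluble lectin chaperone calreticulin, was 295, 313 and 308 FPKM in iEV and 265, 350 and 358 FPKM in iGLI2 cells, with a log2 difference of 0.07 in all 6 libraries (95% interval -0.23 to 0.38, limma adjusted p = 0.715). It was called without that library, at 0.21 (limma adjusted p = 0.0306). In these 4 genes iGLI2 replicates 2 and 3 lay above all iEV libraries, whereas iGLI2 replicate 1 overlapped them or lay below for HSP90B1, HYOU1 and CALR.

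Apart from HYOU1, no BiP cofactor and no disulfide isomerase among these 13 genes was called in either fit. DNAJB9, the BiP cochaperone ERdj4, was 9.16, 7.29 and 7.07 FPKM in iEV and 11.0, 9.03 and 10.5 FPKM in iGLI2 cells, with a log2 difference of 0.34 (95% interval 0.05 to 0.63, limma adjusted p = 0.0915). DNAJC3, another BiP cochaperone, was 17.6, 15.8 and 15.7 FPKM in iEV and 14.3, 14.3 and 14.6 FPKM in iGLI2 cells. All 3 iGLI2 libraries were lower for DNAJC3, but the difference of -0.17 missed the threshold (limma adjusted p = 0.114). SDF2L1, MANF and CRELD2, small ER proteins induced in stress, had differences of -0.23, 0.18 and 0.04. PDIA3, PDIA4 and PDIA6, which form and rearrange disulfide bonds, had differences of 0.11, -0.02 and 0.11, and the 95% intervals of the 3 lay between -0.27 and 0.27. The PDIA3 locus is shared in the table with SERF2, HYPK and other genes. Summed over the 13 genes, the level was 1430, 1445 and 1483 FPKM in iEV and 1411, 1602 and 1611 FPKM in iGLI2 replicates 1, 2 and 3.

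EDEM1 was the clearest change of the list. It encodes a mannosidase-like protein that passes misfolded glycoproteins to ER-associated degradation, and lies on the plus strand at chr3:5229359-5261650 of hg19. It was 17.6, 18.0 and 18.2 FPKM in iEV and 32.8, 33.0 and 33.4 FPKM in iGLI2 cells, and iGLI2 replicate 1 did not stand apart. The mean rose 1.84-fold, from 17.9 ± 0.314 to 33.0 ± 0.297 FPKM (SD, n = 3 per group), with a log2 difference of 0.85 (standard error 0.050, limma adjusted p = 0.000381). Across all alternatives its adjusted p lay between 0.000103 and 0.00551, and its difference stayed between 0.83 and 0.86 as each library was left out.

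The other 4 genes of translocation and degradation were not called in either fit. SEC61B, a subunit of the channel through which proteins enter the ER, was between 192 and 206 FPKM in iEV and was 183, 206 and 218 FPKM in iGLI2 cells. HERPUD1, a stress-induced membrane protein of the degradation complex, was 31.3, 28.2 and 29.1 FPKM in iEV and 25.1, 32.4 and 33.9 FPKM in iGLI2 cells. SEL1L, the partner of the ubiquitin ligase HRD1, lay between 28.0 and 30.4 FPKM in all 6 libraries, with an interval of -0.11 to 0.17 around a log2 difference of 0.03. SYVN1, which encodes HRD1, had a difference of -0.04 (95% interval -0.32 to 0.24), and shares its locus in the table with FAU and MRPL49.

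The amino acid and integrated stress response genes gave the widest spread between replicates. TRIB3, a pseudokinase gene induced by ATF4 and CHOP, was 65.9, 56.9 and 54.5 FPKM in iEV and 36.4, 45.2 and 44.9 FPKM in iGLI2 cells. It fell from 59.1 ± 6.02 to 42.2 ± 5.0 FPKM (SD, n = 3 per group), which is a log2 difference of -0.48 (standard error 0.12, limma adjusted p = 0.0347), with groups that did not overlap. TRIB3 lies on the plus strand at chr20:361273-378203 of hg19. Its adjusted p passed 0.05, with values from 0.0730 to 0.0993, when any library other than iGLI2 replicate 1 was left out, and was 0.0368 without that library.

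ASNS, which makes asparagine and is a classic ATF4 target, lies on the minus strand at chr7:97481429-97501854 of hg19. It was 122, 131 and 120 FPKM in iEV cells, and 34.0, 152 and 152 FPKM in iGLI2 replicates 1, 2 and 3. Replicate 1 thus held 22.3% of the mean of the other iGLI2 libraries, which themselves lay above all iEV libraries. The log2 difference was -0.42 with all 6 libraries (95% interval -1.85 to 1.00, limma adjusted p = 0.647) and 0.29 without iGLI2 replicate 1 (95% interval 0.15 to 0.43, limma adjusted p = 0.0175), so that the sign turned on a single library. XBP1, ATF4, HSPA5, PDIA3, ASNS and PSAT1 have annotated pseudogenes, and how the authors' program handled fragments that match several places is not given in the sources used here.

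PHGDH and PSAT1 encode successive enzymes of serine synthesis. PHGDH was 76.5, 89.0 and 90.5 FPKM in iEV and 32.4, 78.4 and 84.3 FPKM in iGLI2 cells. PSAT1 was 92.0, 101 and 98.5 FPKM in iEV and 27.2, 95.2 and 92.2 FPKM in iGLI2 cells. For both, iGLI2 replicate 1 was far below the other 5 libraries, which overlapped. With all 6 libraries the log2 differences were -0.50 for PHGDH (95% interval -1.39 to 0.39) and -0.63 for PSAT1 (-1.81 to 0.54). Without that library they were -0.06 for PHGDH (95% interval -0.30 to 0.17) and -0.05 for PSAT1 (-0.19 to 0.09).

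CHAC1, a glutathione-degrading enzyme induced through ATF4, lies on the plus strand at chr15:41245636-41248717 of hg19 and was the most affected member. Its values were 8.79, 11.2 and 10.4 FPKM in iEV and 1.23, 11.5 and 10.7 FPKM in iGLI2 cells, so that replicate 1 held 11.1% of the mean of the other iGLI2 libraries. The log2 difference of CHAC1 was -0.69 in all 6 libraries and 0.13 without that library. SESN2, which restrains mTORC1 when leucine is short, was 4.07, 4.09 and 3.67 FPKM in iEV and 1.47, 3.98 and 3.62 FPKM in iGLI2 cells. PPP1R15A encodes GADD34, the subunit that reverses eIF2α phosphorylation, and was 7.56, 15.4 and 13.7 FPKM in iEV and 5.63, 10.6 and 9.85 FPKM in iGLI2 cells. Replicate 1 was the lowest library of its group for PPP1R15A in both groups. None of the 3 genes was called in either fit.

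In order of the ratio of iGLI2 replicate 1 to the mean of replicates 2 and 3, taken on FPKM + 1 over the 12493 genes tested, CHAC1 ranked 103 from the bottom, ASNS 112, PSAT1 121, PHGDH 156 and SESN2 227. The 7 genes of this role had a median of 38.8% of the mean of the other iGLI2 libraries, with TRIB3 the highest at 80.8%. The 13 chaperones and folding enzymes had a median of 82.1% and the 5 translocation and degradation genes 98.8%. Of the 6 members at least 2-fold low in that library, 5 belong to the amino acid role and the sixth is ATF3. Of the 4 members with a C/EBP-ATF response element in the promoter window, 3 (ATF3, ASNS and CHAC1) were among these 6. PSAT1, PHGDH and SESN2, the others of the 6, had no such element in the window. None of the 9 members with either form of the ER stress response element was among the 6. In all 6 libraries CANX was called lower and the other 8 of those 9 were not called, where 21.9% of all genes tested were called. Without iGLI2 replicate 1, HSPA5, HSP90B1, HYOU1 and CALR were called higher, CANX lower, and XBP1, SDF2L1, CRELD2 and HERPUD1 were not called. In that fit 30.0% of all genes tested were called, and iEV replicate 1 was the lowest iEV library for the 4 called higher.

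**Figure D3:**
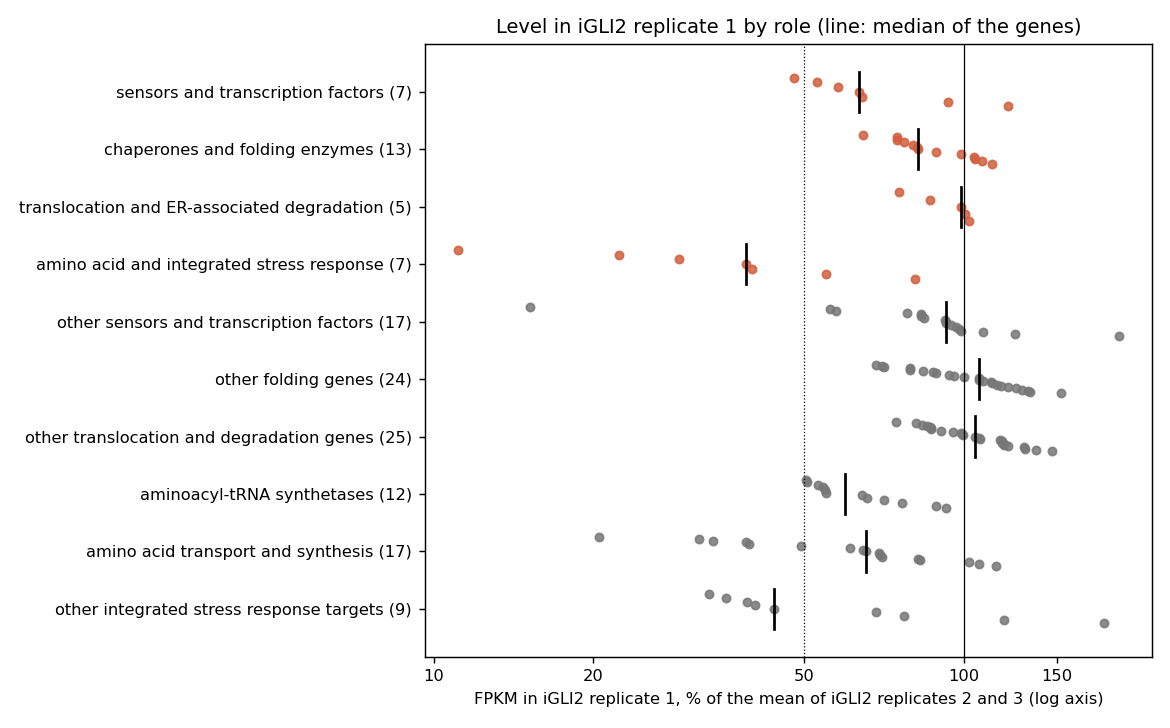
FPKM in iGLI2 replicate 1 as a percentage of the mean of iGLI2 replicates 2 and 3 on a log axis, each point a gene, with the 32 members in orange, other genes of the pathways in grey, black lines at the medians and a dotted line at 50%. The amino acid and integrated stress response members have a median of 38.8% and the aminoacyl-tRNA synthetases one of 59.7%, while the other folding genes lie around 107%.

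A further 107 genes of the same pathways were taken as a list, of which 104 were tested and NUPR1, VLDLR and FGF21 were below the filter. In all 6 libraries 9 of them rose and 5 fell in iGLI2 cells, 13.5% of the 104 in all against 21.9% of all genes tested. Without iGLI2 replicate 1, 21 were higher and 12 were lower, 31.7% against 30.0%. All 14 genes of the first count kept their call and direction in the second. The median log2 difference was 0.0062 and 0.07 in the 2 fits, against -0.015 and 5.6e-05 over all genes tested.

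On the ER side, 3 of 24 further folding genes rose and 1 fell in all 6 libraries (16.7%, against 21.9% of all genes tested). Without iGLI2 replicate 1, 5 rose and 4 fell (37.5%, against 30.0%). The 4 were ERP29, ERO1A, KDELR3 and STC2. DNAJC10, an ER disulfide reductase, was 31.6, 32.2 and 31.4 FPKM in iEV and 46.0, 43.8 and 42.3 FPKM in iGLI2 cells, a log2 difference of 0.46 (limma adjusted p = 0.00367). ERO1B, an oxidase that recharges disulfide isomerases, had a difference of 0.56 at levels between 1.70 and 3.35 FPKM (limma adjusted p = 0.00654). UGGT2, related to the glucosyltransferase that checks glycoprotein folding, had a difference of 0.27 (limma adjusted p = 0.0241). STC2, a secreted glycoprotein induced in ER stress, fell from 106, 145 and 154 FPKM in iEV to 46.9, 70.4 and 66.8 FPKM in iGLI2 replicates 1, 2 and 3, a difference of -1.13 (limma adjusted p = 0.0141). Among 25 further translocation and degradation genes, 5 rose and none fell without iGLI2 replicate 1 (20%, against 30.0%). In all 6 libraries 3 of the 25 rose and none fell (12%, against 21.9% of all genes tested). They are UBE2G2, a ubiquitin-conjugating enzyme of ER-associated degradation (0.44, limma adjusted p = 0.0165), UBXN4, a partner of the p97 ATPase (0.43, limma adjusted p = 0.0152), and the ER lectin gene ERLEC1 (0.25, limma adjusted p = 0.0268). Of 17 further sensors, factors and regulators, EIF2AK2, the double-stranded RNA-activated eIF2α kinase, rose by 0.29 (limma adjusted p = 0.0224) and CEBPG, a partner of ATF4, by 0.26 (limma adjusted p = 0.0360). These 2 are 11.8% of the 17, against 21.9% of all genes tested. Without iGLI2 replicate 1, 5 of the 17 rose (29.4%, against 30.0%).

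On the amino acid side, none of 12 aminoacyl-tRNA synthetase genes was called in all 6 libraries, against 21.9% of all genes tested. Without iGLI2 replicate 1, AARS was called higher and CARS and YARS lower (25% of the 12, against 30.0%). For all 12, iGLI2 replicate 1 was below every other library, with a median of 59.7% of the mean of iGLI2 replicates 2 and 3 and a range from 50.4% for CARS to 92.5% for LARS. CARS was 44.4, 52.9 and 50.5 FPKM in iEV and 16.1, 32.5 and 31.6 FPKM in iGLI2 cells, with a log2 difference of -0.92 in all 6 libraries (limma adjusted p = 0.0596). Without replicate 1 it was called lower, at -0.60 (limma adjusted p = 0.00845). Of 17 genes of amino acid transport and synthesis, 1 rose and 1 fell in all 6 libraries (11.8%, against 21.9% of all genes tested). Without iGLI2 replicate 1, SLC7A11, ALDH18A1, PCK2 and GPT2 were higher and SLC38A2, ALDH1L2 and PYCR1 lower (41.2%, against 30.0%). In all 6 libraries SLC7A11, the cystine carrier, rose from 20.3, 21.6 and 21.1 to 35.5, 32.4 and 29.3 FPKM (0.60, limma adjusted p = 0.00523). SLC38A2, a carrier of small neutral amino acids, fell from 133, 143 and 141 to 101, 97.9 and 98.9 FPKM (-0.48, limma adjusted p = 0.00310). Both changes were as large or nearly so in replicate 1 as in the others. By contrast, SHMT2, ALDH1L2, PYCR1, PCK2, CBS and SLC1A5 were at least 2-fold low in that library, ALDH1L2 at 20.5% and PCK2 at 31.6% of the mean of the other iGLI2 libraries. For ALDH1L2 and PYCR1, iGLI2 replicates 2 and 3 also lay below every iEV library. Both were called lower without replicate 1 (limma adjusted p = 0.0458 and 0.0174), whereas SHMT2, CBS and SLC1A5 were not called in either fit. GPT2, an alanine transaminase, had a log2 difference of 0.69 in all 6 libraries (limma adjusted p = 0.0517) and rose by 0.92 without that library (limma adjusted p = 0.000526). PCK2, the mitochondrial phosphoenolpyruvate carboxykinase, had a log2 difference of -0.16 in all 6 libraries (limma adjusted p = 0.828) and rose by 0.37 without that library (limma adjusted p = 0.00697), so that its sign too turned on a single library.

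Of 9 further targets of the integrated stress response 3 fell and none rose in all 6 libraries (33.3%, against 21.9% of all genes tested). Without iGLI2 replicate 1, 3 fell and 1 rose (44.4%, against 30.0%). GDF15, a secreted stress cytokine, was 411, 467 and 407 FPKM in iEV and 57.0, 136 and 156 FPKM in iGLI2 cells. Its log2 difference was -1.99 (standard error 0.38, limma adjusted p = 0.0155), and -1.54 without iGLI2 replicate 1 (limma adjusted p = 0.00104). JDP2, a transcription factor of the AP-1 group, fell by 1.06 on the log2 scale (limma adjusted p = 0.0227), and BBC3, which encodes the death protein PUMA, fell by 0.48 (limma adjusted p = 0.0184). For GDF15, JDP2 and BBC3 iGLI2 replicate 1 was again the lowest library, and replicates 2 and 3 also lay below every iEV library. Of the 104 genes, 12 were at least 2-fold low in iGLI2 replicate 1 (11.5%, against 2.81% of all genes tested). They include ATF5, where the ratio rests on a value of 189 FPKM in iGLI2 replicate 3 beside 15.6 and 15.7 FPKM in replicates 1 and 2.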

How the data were processed

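RNA-seq libraries of YAPC-iEV and YAPC-iGLI2 cells (3 each) were grouped by the sample titles. The authors used Trimmomatic for trimming, TopHat2 for alignment to hg19 and Cuffdiff 2.1.1 for expression, with names and version from the submitters' processing notes. The deposited values were read as FPKM, from their form and totals, since the header names no unit. The annotation, strand setting, scaling and handling of multiply mapping reads are not given in the sources used here. All 6 value columns were matched to samples. The table's loci start at 0 and were shifted to start at 1.

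Of 27024 entries, 1252 off the primary chromosomes and 330 lower duplicates of a name were left out. A mean of 1 FPKM or more was required, and log2(FPKM + 1) of the 12493 genes left was tested with limma 3.58.1 in R 4.3.3, with an intensity trend, condition as the only term and Benjamini-Hochberg adjustment over all genes. The code was tested on simulated data. The members, the pathway list and the marker lists were chosen with earlier results of these data known. All 32 members are named, and of the pathway list up to 3 genes with the smallest p per direction and role, while GPT2, PCK2, CARS, LARS, ALDH1L2, ATF5 and others named for iGLI2 replicate 1 were chosen after their values were seen. Alternatives were other pseudocounts, filters, scalings, blocks and variance moderation, and each library left out in turn. Leaving out iGLI2 replicate 1 together with rescaling was added after seeing the data. Python 3.11.15 was used for tables and plots.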

Additional observations from a re-analysis of the deposited data

How the results depend on the processing

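EDEM1 kept its direction and call in every alternative. With small RNA genes left out and the libraries rescaled, 4 members were higher (HSPA5, HSP90B1 and HYOU1 joined EDEM1) and 1 lower, and 16 further pathway genes were higher. Quantile normalization gave 3 members higher, 1 lower and 14 pathway genes higher, and upper quartile and median scaling gave 14 pathway genes higher each. A mean of at least 5 FPKM gave 3 pathway genes lower. With the sample code digit as a block, 1 member was lower. With rescaling and iGLI2 replicate 1 left out together, 9 members and 25 pathway genes were higher, 10 pathway genes were lower, and 4162 of all genes were called. Leaving out each library in turn gave 1 to 7 members higher and 0 to 2 lower, 3 to 21 pathway genes higher and 1 to 12 lower, and 1223 to 3753 of all genes called, with the highest numbers without iGLI2 replicate 1 in each case. The cause was not tested.

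The sample titles carry the codes YRE1A, YRE1B and YRE2A for iEV and YRG1A, YRG1B and YRG2B for iGLI2 replicates 1, 2 and 3. What the digits and letters of these codes stand for is not stated. The labels do not say whether the replicate numbers pair the libraries, and the values do not settle it. Deviations from the group means correlated at 0.204, 0.0919 and 0.0277 for numbers 1, 2 and 3. The value for number 1 was the highest of all pairs. For number 2 the match was not the best, since iEV replicate 2 was closest to iGLI2 replicate 3 (0.117). With the replicate block, 5 members were called higher and 2 lower, and 19 pathway genes higher and 8 lower. EIF2AK3, HSPA5, HSP90B1 and DNAJB9 then passed as higher, PPP1R15A as lower, and TRIB3 did not pass.

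The signs of 13 members turned in at least 1 alternative. Rescaling without small RNA genes gave 0.0695 for ATF6, 0.0275 for ATF4, 0.0542 for PDIA4 and 0.0325 for SYVN1. Upper quartile scaling gave 0.0098 for ATF6 and quantile normalization 0.0637 for ATF4. With rescaling and iGLI2 replicate 1 left out, ATF6 was 0.0632, XBP1 0.0854, ATF4 0.25, SDF2L1 0.0094, PDIA4 0.12, ASNS 0.33 and CHAC1 0.16. With each library left out, log2 differences ranged from -0.0334 to 0.21 for ERN1, -0.0396 to 0.0357 for ATF6, -0.27 to 0.0478 for XBP1, -0.18 to 0.21 for ATF4, -0.0528 to 0.17 for CRELD2, -0.0039 to 0.21 for CALR, -0.081 to 0.0803 for PDIA4, -0.0437 to 0.0814 for SEC61B, -0.0491 to 0.16 for HERPUD1, -0.13 to 0.074 for SYVN1, -0.78 to 0.29 for ASNS and -1.12 to 0.13 for CHAC1.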

Other observations

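Replicate 1 of both groups lay on the same side of its group for most members. Both replicate 1 libraries were the lowest of their group for 19 of the 32 genes (59.4%), ATF4, ATF3, DDIT3, CHAC1 and PPP1R15A among them, against 33.9% of all genes tested. Both were the highest of their group for 6 genes (18.8%), which are EIF2AK3, DNAJB9, CANX, PDIA3, PDIA6 and SEL1L, against 25.2% of all genes tested. DDIT4, an inhibitor of mTORC1 that is induced by low energy, low oxygen and ATF4, had the opposite order to the amino acid genes. In the order of replicates 1, 2 and 3, iEV cells had 115, 49.0 and 57.2 FPKM and iGLI2 cells had 251, 130 and 126 FPKM, a log2 difference of 1.21 (limma adjusted p = 0.0873). Whether DDIT4 was called depended on the fit, with a limma adjusted p from 0.00342 with the replicate number as a block to 0.246 without iEV replicate 2. These genes were chosen after their values were seen.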
